A study of Rattus norvegicus with 120 samples.

Results

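The effect of obesity on the transcriptome was compared between heart and kidney of ZSF1 rats at 30 weeks of age. The comparison used 39 of the 120 libraries of the study: 10 from hearts of lean rats, 10 from hearts of obese rats, 9 from kidneys of lean rats and 10 from kidneys of obese rats. All of these rats received vehicle, given with the chow as the compounds of the other groups were, and all belonged to study A, 1 of the study's 2 parts. Lean kidney replicate 8, which carries muscle transcripts, was left out by the rule that defined the set. The quantity of interest was the difference of differences for each gene: obese minus lean in heart, minus obese minus lean in kidney. Genes were sorted by it into shared, opposite and organ-specific responses.

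ZSF1 obese rats inherit a faulty leptin receptor gene from each parent strain, overeat, and develop hyperlipidaemia, raised blood glucose, hypertension and progressive kidney disease, whereas their lean counterparts keep a working receptor. Heart muscle burns mainly fatty acids, and an excess of fatty acids activates the nuclear receptor PPAR alpha, which turns on genes for their uptake and oxidation. The proximal tubule of the kidney also depends on fatty acid oxidation, and injured tubules are known to lose it while they induce injury, matrix and inflammatory genes. The labels do not give the sex of the rats or which heart and kidney came from 1 rat. The renal samples are labelled kidney, and the design text of the study names both the whole organ and its cortex.

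Library totals ran from 6620583 to 28132583 estimated counts. The leptin receptor gene Lepr was below the detection filter in heart, with medians of 1.24 CPM (counts scaled to 1 common library total) in lean and 0.439 CPM in obese hearts. In kidney it stood at 4.62 to 12.4 CPM (median 9.82) in lean and 1.19 to 6.17 CPM (median 4.92) in obese rats, and the kidney-alone fit gave Lepr a log2 change of -1.22 ± 0.20 (adjusted p = 6.7e-05). The faulty alleles change the receptor's sequence, so this level is no direct check of the genotype. Heart muscle markers summed to 44768 CPM or more in every heart and to 1072 CPM or less in every kidney used, and kidney tubule markers to 15045 CPM or more in every kidney and to 365 CPM or less in every heart. A set of 5 libraries stood apart in markers of another tissue or part of the organ. Heart lean replicate 8 held the tubule gene Umod at 76.7 CPM. Heart obese replicates 2 and 10 held the atrial gene Myl7 at 532 and 694 CPM beside a heart median of 89.4 CPM. Kidney lean replicate 2 and kidney obese replicate 4 carried the muscle gene Myh4 at 537 and 832 CPM. The share of counts from mitochondrial transcripts was 28.5% to 46.2% (median 38.7%) in lean and 37.0% to 48.0% (median 43.9%) in obese hearts. With mitochondrially encoded genes removed before scaling there were 2180 differences, 1019 calls in heart and 134 opposite genes (2180, 1033 and 134 with them kept).

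Of 12146 genes measured in both organs, 2180 (17.9%) responded to obesity differently in heart and kidney at an adjusted p under 0.05. The effect was higher in heart for 898 (7.39%) and lower in heart for 1282 (10.6%). In heart itself 1033 genes (8.50%) changed, of which 613 (5.05%) rose and 420 (3.46%) fell in obese rats. In kidney 3357 (27.6%) changed, of which 1898 (15.6%) rose and 1459 (12.0%) fell. The median standard error of the log2 fold change was 0.11 in heart, 0.11 in kidney and 0.16 for the difference. These values come from a joint fit of both organs, in which heart and kidney share the estimate of each gene's spread. Their likeness therefore cannot show equal precision in the organs. With each organ fitted alone, 581 genes were called in heart and 4326 in kidney. The heart count moved with the processing: it was 566 without the plate term, 581 with each organ fitted alone and 676 without the 5 libraries that stand apart.

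A gene was called shared when it changed in both organs in the same direction, which held for 329 genes (2.71%). Of these, 203 rose and 126 fell. The difference between organs did not pass the test for 255 of them, and passed it for 74, where the effect was larger in kidney for 57 and larger in heart for 17. Opposite genes, which changed in both organs in opposite directions with the difference also past the test, numbered 134 (1.10%): 77 rose in obese hearts and fell in obese kidneys, and 57 did the reverse. There were 76 opposite genes without the 5 libraries that stand apart, 80 with kidney lean replicate 8 kept, 60 without the plate term and 10 in plate 2 alone. Heart-specific genes, called in heart and not in kidney with the difference also called, numbered 277 (2.28%), with 178 higher and 99 lower in obese rats. Kidney-specific genes, defined in the same way, numbered 1493 (12.3%), with 983 higher and 510 lower. A missed call in the other organ does not show that a gene was unchanged there. The unadjusted 95% interval in the other organ lay within 1.5-fold for 252 heart-specific and 1257 kidney-specific genes. A further 1694 genes were called in 1 organ without a shown difference between organs, 293 of them in heart and 1401 in kidney, and these are placed in no class.

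Of the genes called in heart, 44.8% were also called in kidney, and of those called in kidney, 13.8% were also called in heart. Among the 463 called in both, 71.1% moved in the same direction. Across all 12146 genes the log2 fold changes in the organs had a Pearson correlation of 0.25 and a Spearman correlation of 0.20, given as a description over genes, which are not independent replicates.

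**Figure D1:**
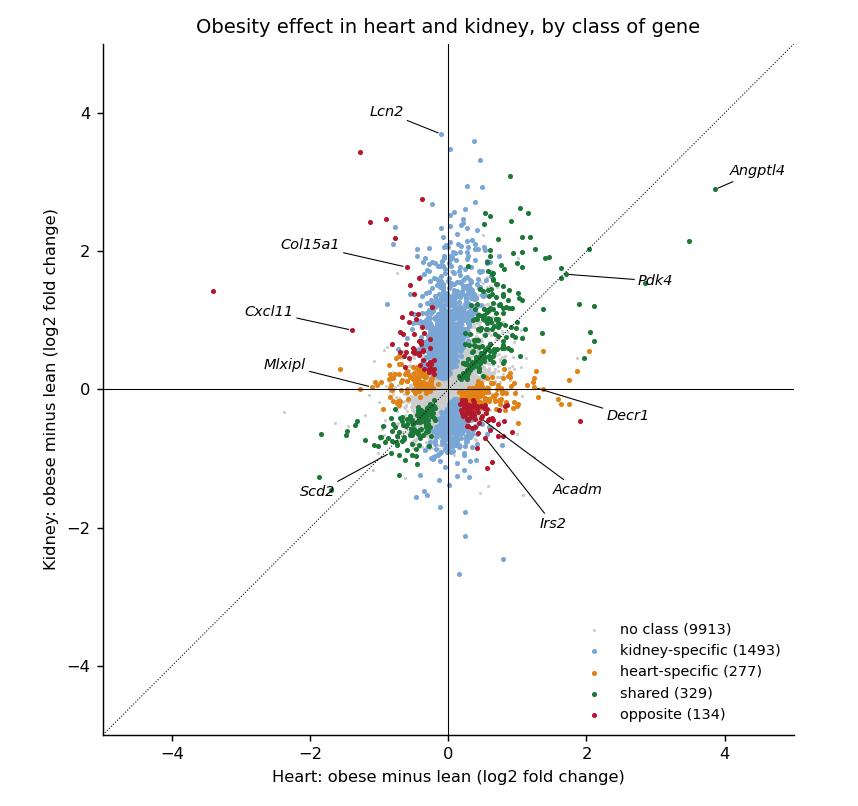
Each point is 1 of 12146 genes, placed by its log2 fold change (obese minus lean) in heart on the horizontal axis and in kidney on the vertical axis; colours mark the classes and the dotted line marks equal effects. Most kidney-specific genes lie along the vertical axis above 0 (983 higher, 510 lower), and Angptl4 stands far out along the diagonal.

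The genes that rose in both organs included several that respond to fasting or to fatty acids. Angptl4, a secreted inhibitor of lipoprotein lipase and a PPAR target, stood at 1.54 to 5.18 CPM (median 3.57) in lean and 36.1 to 74.5 CPM (median 42.3) in obese hearts. In kidney it stood at 4.3 to 9.94 CPM (median 5.54) in lean and 28 to 54.2 CPM (median 45.6) in obese rats. No obese library overlapped a lean one in either organ. The log2 fold change was 3.86 ± 0.16 (SE) in heart and 2.89 ± 0.17 in kidney, and the difference of 0.96 ± 0.23 was past the test (adjusted p = 0.0018).

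Pdk4, the kinase that switches off pyruvate dehydrogenase and so spares glucose, stood at 71.5 to 219 CPM (median 172) in lean and 214 to 677 CPM (median 502) in obese hearts, and at 20.01 to 42.4 CPM (median 26.6) in lean and 53 to 118 CPM (median 81.8) in obese kidneys. The lowest obese heart lay just under the highest lean heart, and the kidney groups did not overlap. Its log2 rise was 1.70 ± 0.16 in heart and 1.67 ± 0.17 in kidney, and the difference had a 95% interval of -0.44 to 0.50. With kidney lean replicate 8 kept in the fit, the kidney effect of Pdk4 was 0.56 and not past the test (adjusted p = 0.35).

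Txnip, a glucose-induced brake on glucose uptake, was at 243 to 539.9 CPM (median 382) in lean and 919.8 to 1086 CPM (median 1017) in obese hearts, and at 364 to 506 CPM (median 444) and 669 to 821 CPM (median 762) in the kidneys. Lean and obese libraries were fully apart in both organs. Its effect was 1.36 ± 0.09 in heart against 0.82 ± 0.09 in kidney (adjusted p of the difference = 0.0018).

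Plin2, a coat protein of lipid droplets, rose more in kidney. Its level was 45.9 to 68.2 CPM (median 57.4) in lean and 62.7 to 87.8 CPM (median 80.5) in obese hearts, and 76.7 to 90.02 CPM (median 83.4) in lean and 136 to 183 CPM (median 150.1) in obese kidneys. The log2 change was 0.43 ± 0.06 in heart and 0.88 ± 0.06 in kidney (difference -0.45 ± 0.09, adjusted p = 2.5e-04).

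The promoter windows of 4 of these fuel genes are printed here because shared and opposite members can be set side by side: Angptl4 and Pdk4 rose in both organs, while Acadm and Acadvl, described below, rose in heart and fell in kidney. Each window runs from 250 bases before to 50 bases after the start in RefSeq (build GRCr8), 5′ to 3′ on the gene's strand, here the minus strand for all 4. Capitals mark the letters AGGNCA or their reverse complement on the other strand, the half-site that nuclear receptors of the PPAR type bind in pairs. The windows lie at chr7:15258632-15258931 for Angptl4, chr4:34568280-34568579 for Pdk4, chr2:245542815-245543114 for Acadm and chr10:55236656-55236955 for Acadvl.
Angptl4: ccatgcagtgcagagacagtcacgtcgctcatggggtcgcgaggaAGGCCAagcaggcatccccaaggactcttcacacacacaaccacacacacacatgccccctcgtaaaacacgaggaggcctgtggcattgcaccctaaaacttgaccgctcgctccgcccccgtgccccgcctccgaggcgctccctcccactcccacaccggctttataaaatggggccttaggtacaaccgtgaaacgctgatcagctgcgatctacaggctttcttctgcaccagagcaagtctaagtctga
Pdk4: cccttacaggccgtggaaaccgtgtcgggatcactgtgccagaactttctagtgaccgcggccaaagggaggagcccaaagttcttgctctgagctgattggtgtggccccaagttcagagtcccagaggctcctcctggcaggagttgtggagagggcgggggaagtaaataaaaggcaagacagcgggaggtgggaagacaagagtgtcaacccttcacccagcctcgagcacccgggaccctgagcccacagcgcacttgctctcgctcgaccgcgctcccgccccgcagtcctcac
Acadm: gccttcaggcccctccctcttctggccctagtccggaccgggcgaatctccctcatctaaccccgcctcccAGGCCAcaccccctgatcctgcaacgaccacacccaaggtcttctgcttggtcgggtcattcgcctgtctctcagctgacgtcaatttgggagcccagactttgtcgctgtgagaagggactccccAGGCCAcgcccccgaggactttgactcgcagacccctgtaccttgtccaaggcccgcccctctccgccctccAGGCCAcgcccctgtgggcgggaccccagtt
Acadvl: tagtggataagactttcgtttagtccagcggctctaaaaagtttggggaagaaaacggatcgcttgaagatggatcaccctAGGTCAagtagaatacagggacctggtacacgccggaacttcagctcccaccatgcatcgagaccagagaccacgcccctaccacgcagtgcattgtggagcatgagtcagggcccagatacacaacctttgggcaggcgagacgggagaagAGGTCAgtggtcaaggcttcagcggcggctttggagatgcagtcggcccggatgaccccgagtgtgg
The half-site letters occur 1 time in the Angptl4 window, 3 times in that of Acadm, 2 times in that of Acadvl and 0 times in that of Pdk4. They were present in 56.3% of all 27457 windows and in 51.1% of the 8907 windows of genes measured in both organs. Windows of shared genes that rose held them in 60.6%, opposite genes that rose in heart in 51.7%, and heart-specific genes that rose in 51.9% of cases. Of the fatty acid oxidation genes with a window, 13 of 16 held them. These are counts of letters in a short window and not of bound sites.

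Slfn4, a schlafen gene of myeloid cells, rose by 1.40 ± 0.26 in heart and 1.90 ± 0.27 in kidney, from medians of 8.7 to 23.9 CPM and 14.4 to 56.8 CPM, with a 95% interval of -1.24 to 0.23 for the difference. Among the shared genes that fell, the stearoyl-CoA desaturase gene Scd2 was at 24.7 to 40.9 CPM (median 35.5) in lean and 13.4 to 22.6 CPM (median 20.03) in obese hearts and at 145 to 229.6 CPM (median 182) and 61.9 to 118 CPM (median 97.3) in the kidneys. Obese libraries lay below all lean ones in both organs. Its log2 changes, -0.84 ± 0.09 in heart and -0.92 ± 0.09 in kidney, had a 95% interval of -0.17 to 0.33 for their difference.

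Slc25a29, a mitochondrial carrier of basic amino acids, was lower in both, with log2 changes of -0.91 ± 0.14 in heart and -0.76 ± 0.15 in kidney, from medians of 12.2 to 7.25 CPM and 13.4 to 8.08 CPM. Gcgr, the glucagon receptor, fell from a median of 9.85 to 6.24 CPM in heart and from 28.4 to 11.7 CPM in kidney, with log2 changes of -0.71 ± 0.14 and -1.24 ± 0.14. Its difference between organs missed the threshold (adjusted p = 0.06) and passed it under 5 of 19 alternatives. Cdkn1a, the cell cycle inhibitor p21, rose by 2.40 ± 0.21 in kidney, from 2.47 to 5.13 CPM (median 2.89) in lean to 12.2 to 28 CPM (median 15.3) in obese rats, without overlap. In heart its change was 0.52 ± 0.16 (adjusted p = 0.04), a call that was lost under 12 of 18 alternatives (adjusted p from 0.017 to 0.44), whereas the difference between organs was -1.88 ± 0.27.

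**Figure D2:**
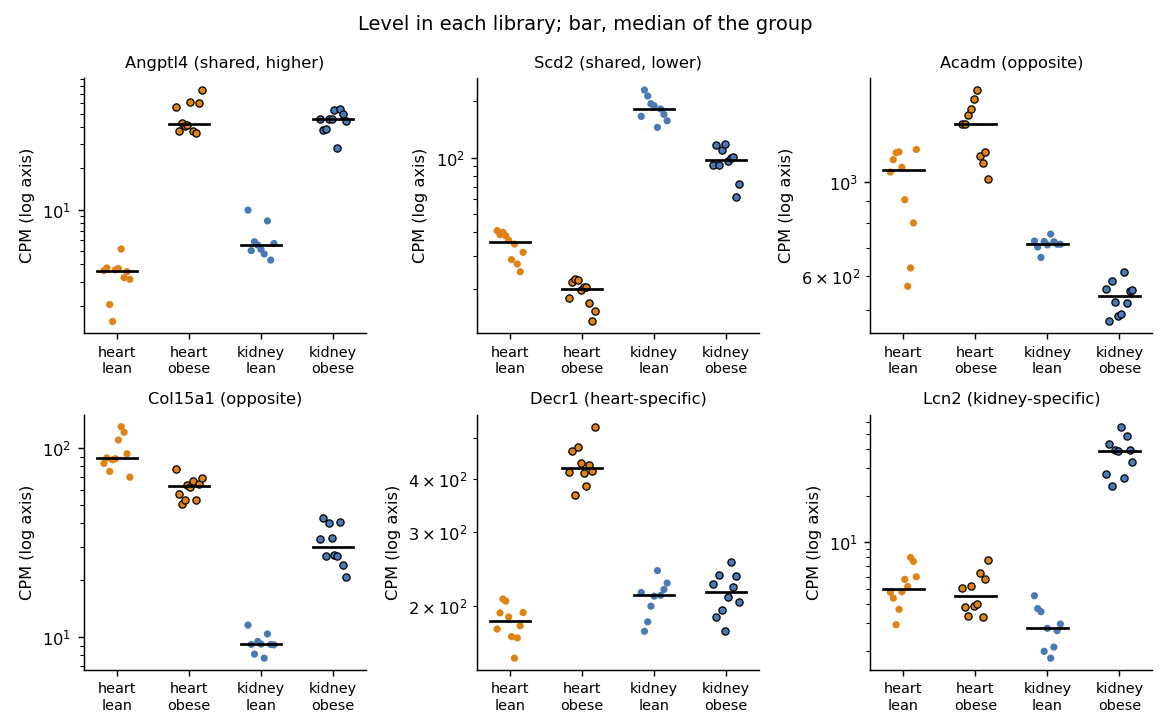
CPM of 6 genes in each of the 39 libraries on a log axis, by organ and strain, with orange points for heart, blue points for kidney, outlined points for obese rats and bars at group medians. Acadm sits higher in obese hearts (median 1366 against 1068 CPM) and lower in obese kidneys (median 538 against 713 CPM), and Lcn2 separates lean from obese only among the kidney points.

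Genes of fatty acid oxidation, which breaks fatty acids down to acetyl-CoA, parted between the organs. Of 20 measured genes of the mitochondrial pathway, 10 rose and 1 fell in obese hearts, beside 5.05% and 3.46% of all genes. In obese kidneys 1 rose and 6 fell, beside 15.6% and 12.0% of all genes. The effect was higher in heart for 12 and lower in heart for 0 (1 at an unadjusted p under 0.05 by edgeR, 0 by DESeq2), against 7.39% and 10.6% of all genes. The list median was 0.33 in heart and -0.15 in kidney, beside medians of 0.0016 and -0.0068 over all genes measured in both. By class, 3 were opposite, 7 heart-specific, 1 shared and 1 kidney-specific. Without the 5 libraries that stand apart, 10 rose in heart, 4 fell in kidney and 11 differed between the organs, but 1 was opposite (Acadm) and 9 were heart-specific, with Acaa2 and Acadvl now among the latter. The fat cell marker list summed to 528 to 958 CPM in lean and 626 to 1461 CPM in obese hearts, and its 4 members measured in both organs, Fabp4, Pnpla2, Lipe and Cfd, rose in heart. Fabp4 had the highest level of the list, with medians of 346 and 496 CPM in lean and obese hearts. Medians were 186 and 221 CPM for Pnpla2, 67.7 and 77.6 CPM for Lipe and 2.94 and 3.69 CPM for Cfd. The other 6 of the 10 markers had a median of 0 in lean hearts, and in obese hearts too except Adipoq at 0.0828 CPM; the highest single heart value was 1.67 CPM, for Cidec. The part of fat cells in the heart values was not tested.

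Acadm, the medium-chain acyl-CoA dehydrogenase, stood at 568 to 1191 CPM (median 1068) in lean and 1014 to 1644 CPM (median 1366) in obese hearts, with overlap, and at 663 to 753 CPM (median 713) in lean and 469 to 614 CPM (median 538) in obese kidneys, without overlap. It changed by 0.47 ± 0.09 in heart (adjusted p = 5.9e-04) and by -0.42 ± 0.09 in kidney (adjusted p = 6.3e-04), a difference of 0.89 ± 0.13 (adjusted p = 4.2e-06). Acaa2, the thiolase of the last step of the cycle, was at 527 to 1325 CPM (median 1032) in lean and 1526 to 2101 CPM (median 1615) in obese hearts and at 399.5 to 460.4 CPM (median 426) and 244 to 447 CPM (median 349) in the kidneys. All obese hearts lay above all lean hearts, while the kidney groups overlapped. The heart change of 0.73 ± 0.11 lost its call under 1 of 18 alternatives, namely plate 2 alone, and the kidney change of -0.29 ± 0.11 (adjusted p = 0.048) lost its call under 8 of 18 (adjusted p from 0.0038 to 0.52).

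Acadvl, which starts on very long chains, also rose in heart and fell in kidney. Its heart levels were 389 to 634 CPM (median 568) in lean and 674 to 793 CPM (median 715) in obese rats, and its kidney levels 267 to 296 CPM (median 281) and 214 to 292 CPM (median 249). The difference between organs was 0.56 ± 0.10 (adjusted p = 3.7e-05), made of 0.38 ± 0.07 in heart and -0.18 ± 0.07 in kidney, and the kidney call (adjusted p = 0.043) was lost under 9 of 18 alternatives (adjusted p from 0.0036 to 0.47). Decr1, which prepares unsaturated fatty acids for oxidation, was called in heart and not in kidney. It was at 151 to 208 CPM (median 184) in lean and 365 to 531 CPM (median 424) in obese hearts, without overlap, and at 174 to 243 CPM (median 212) and 175 to 255 CPM (median 216) in the kidneys. The change was 1.24 ± 0.07 in heart and 0.03 ± 0.07 in kidney, where the 95% interval was -0.11 to 0.17. For Ech1, a dienoyl-CoA isomerase on the same route, heart levels was at 379.5 to 589 CPM (median 468) in lean and 691 to 1113 CPM (median 799.7) in obese rats and the kidney medians were 180.2 and 176 CPM, with changes of 0.78 ± 0.08 and -0.02 ± 0.08.

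Peroxisomal and PPAR alpha target genes rose in heart and moved both ways in kidney. Of 17 measured in both organs, 11 rose and 0 fell in heart, whereas 5 rose and 6 fell in kidney. By the test of the difference, 13 were higher and 2 lower in heart than in kidney. Over all genes, 5.05% rose and 3.46% fell in heart, and 15.6% rose and 12.0% fell in kidney. The effect was higher in heart for 7.39% of all genes and lower for 10.6%. Abcd3, a peroxisomal importer of fatty acids, was at 36 to 55.4 CPM (median 47.2) in lean and 52.3 to 71.1 CPM (median 57.5) in obese hearts and at 242 to 300.3 CPM (median 283) and 167 to 248 CPM (median 206) in the kidneys, with changes of 0.32 ± 0.06 and -0.40 ± 0.06. Nudt7, a peroxisomal hydrolase of coenzyme A, rose by 0.81 ± 0.09 in heart without overlap of the groups (medians 19.1 and 34.2 CPM) and fell by 0.25 in kidney (medians 31.6 and 27.6 CPM, adjusted p = 0.033), a kidney call lost under 5 of 18 alternatives. Retsat, retinol saturase, was at 120.2 to 162 CPM (median 156) in lean and 235 to 326 CPM (median 273) in obese hearts, fully apart, and at 439.9 to 518 CPM (median 484) and 356 to 509 CPM (median 406) in the kidneys; its effects were 0.84 ± 0.06 and -0.22 ± 0.07. Ucp2, a mitochondrial carrier that PPARs also induce, rose in kidney by 1.56 ± 0.13 without overlap (medians 20.3 and 62.4 CPM), and in heart it was 0.33 ± 0.12 (adjusted p = 0.073).

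**Figure D3:**
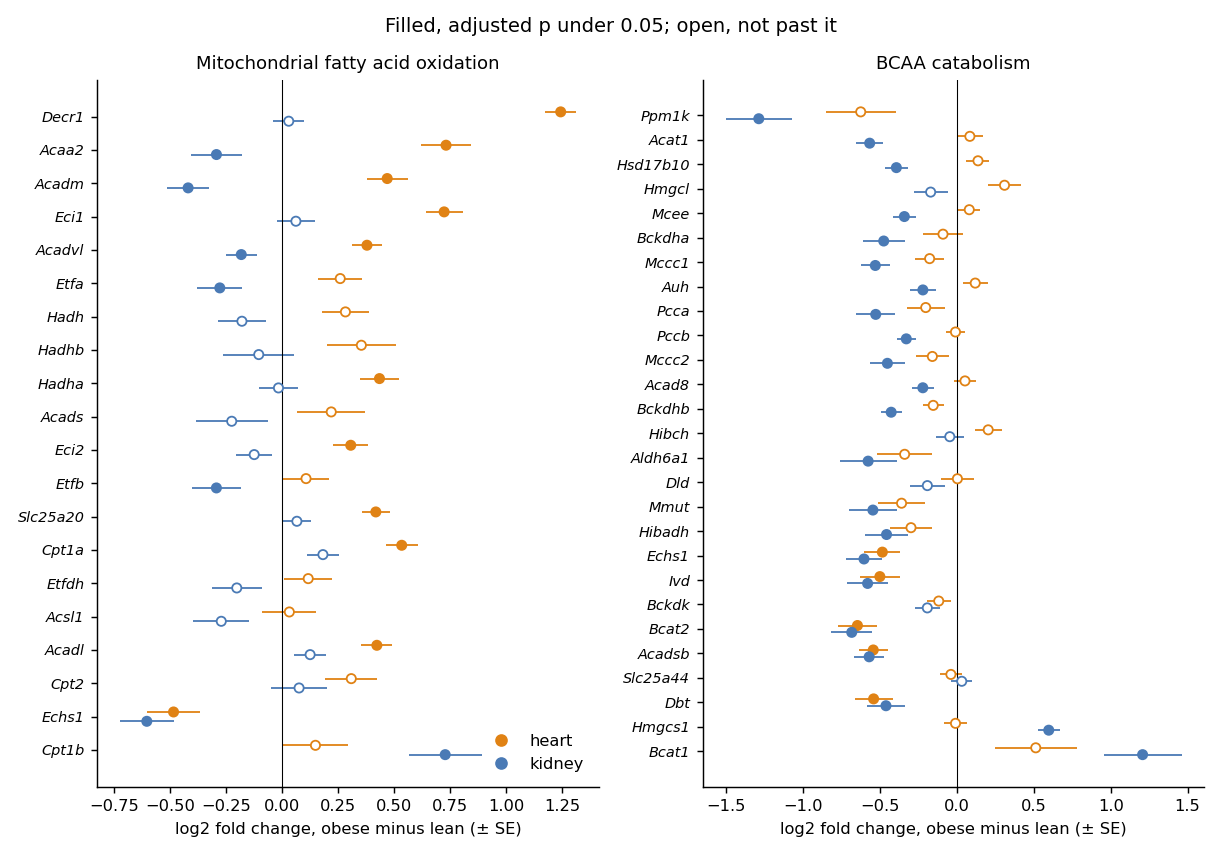
Log2 fold change (obese minus lean) of each measured gene of mitochondrial fatty acid oxidation (left, 20 genes) and branched-chain amino acid catabolism (right, 27 genes) in heart (orange) and kidney (blue), with bars of 1 SE; filled points passed an adjusted p of 0.05. On the left 10 filled heart points lie above 0 and 6 filled kidney points below it, and on the right 20 filled kidney points lie below 0 beside 5 filled heart points.

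Genes of branched-chain amino acid (BCAA) catabolism, the pathway in the study's title, fell mainly in kidney. Of 27 measured, 20 fell and 2 rose in obese kidneys, beside 12.0% and 15.6% of all genes. In obese hearts 5 fell and 0 rose, beside 3.46% and 5.05% of all genes. The median was -0.45 in kidney and -0.12 in heart. The difference between organs was called for 9 of them, 8 with the higher effect in heart and 1 with the lower. Of all genes, 7.39% and 10.6% differed in these directions. By class, 5 were shared, 8 kidney-specific and 0 opposite, so no measured member was called in opposite directions.

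Bcat2, the mitochondrial transaminase that takes the first step, was at 62.8 to 167 CPM (median 118) in lean and 57.9 to 93.1 CPM (median 70.8) in obese hearts and at 58.4 to 81.1 CPM (median 72.6) and 30.5 to 61.5 CPM (median 46.1) in the kidneys. Its log2 changes were -0.65 ± 0.13 in heart and -0.68 ± 0.13 in kidney, and the interval of the difference was -0.33 to 0.41. Dbt, the E2 core of the branched-chain ketoacid dehydrogenase, was at 32.7 to 97.2 CPM (median 79.2) and 25.4 to 67.2 CPM (median 46.9) in lean and obese hearts and at 118 to 142 CPM (median 123) and 65.8 to 108 CPM (median 88.4) in the kidneys. Its changes were -0.54 ± 0.12 and -0.46 ± 0.13. The E1 subunit genes were called in kidney and not in heart: Bckdha changed by -0.48 ± 0.14 in kidney and -0.09 ± 0.13 in heart with the difference not past the test (adjusted p = 0.17), and Bckdhb by -0.43 ± 0.07 and -0.15 ± 0.07 with a difference of 0.27 ± 0.10 (adjusted p = 0.042) that lost its call under 16 of 19 alternatives (adjusted p from 0.017 to 0.34).

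Of the pair of regulators of that enzyme, the activating phosphatase Ppm1k was at 5.36 to 32.9 CPM (median 22) in lean and 1.22 to 22.7 CPM (median 13.5) in obese hearts, and at 101 to 125 CPM (median 112) in lean and 31.1 to 53.8 CPM (median 47.3) in obese kidneys. The kidney groups did not overlap and the change was -1.29 ± 0.22 (adjusted p = 1.1e-05). In heart it was -0.62 ± 0.23 (adjusted p = 0.082), and a difference between organs was not shown (unadjusted 95% interval 0.03 to 1.29, adjusted p = 0.15). Leaving out heart lean replicate 8 brought the heart change to -0.71 with an adjusted p of 0.037, and leaving out heart obese replicate 10 brought the difference to 0.79 with an adjusted p of 0.03. The inactivating kinase Bckdk was at 86.5 to 164 CPM (median 127) and 94.3 to 137 CPM (median 116) in lean and obese hearts and at 144 to 169 CPM (median 158) and 110.5 to 165 CPM (median 143) in the kidneys. Neither organ passed the adjusted test, with unadjusted 95% intervals of -0.28 to 0.04 in heart and -0.36 to -0.03 in kidney, although the kidney value passed it under 6 of 18 alternatives. Further down the route is Acat1, a thiolase of isoleucine breakdown and of ketone body use. It was at 552 to 601 CPM (median 588) in lean and 309 to 507 CPM (median 396) in obese kidneys, without overlap. In the hearts it was at 384 to 689 CPM (median 619) in lean and 561 to 683 CPM (median 596) in obese rats. The change was -0.57 ± 0.09 in kidney and 0.08 ± 0.08 in heart (adjusted p of the difference = 1.3e-04).

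Bdh1, the dehydrogenase that interconverts the main ketone bodies, fell in both organs and more in heart. It was at 17.6 to 67.8 CPM (median 58.2) in lean and 6.9 to 28.6 CPM (median 17.4) in obese hearts and at 49.1 to 63 CPM (median 54.3) and 24.4 to 44.4 CPM (median 36.5) in the kidneys, with log2 changes of -1.48 ± 0.18 and -0.65 ± 0.18 (adjusted p of the difference = 0.021).

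Opposite genes outside fat oxidation included the insulin signalling adaptor Irs2, the opposite gene of that list. It was at 7.26 to 18.4 CPM (median 10.5) in lean and 12 to 21.2 CPM (median 16.7) in obese hearts and at 27.8 to 86.4 CPM (median 50.6) and 28.4 to 39.8 CPM (median 32.4) in the kidneys, with overlap in each organ. The difference between organs was 1.23 ± 0.23 (adjusted p = 1.6e-04). In kidney it fell by 0.70 (adjusted p = 1.0e-03), and the heart rise of 0.53 ± 0.17 (adjusted p = 0.04) lost its call under 8 of 18 alternatives (adjusted p from 0.02 to 0.54). Cacna1h, a T-type calcium channel subunit, rose by 0.72 ± 0.12 in heart (medians 13.9 and 23.2 CPM) and changed by -0.68 ± 0.14 in kidney (medians 7.75 and 5 CPM), with adjusted p of 4.7e-05 and 1.5e-04.

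The reverse kind of opposite gene, lower in obese hearts and higher in obese kidneys, included collagens and chemokine genes. Col15a1, a collagen of basement membrane zones, was at 70.1 to 129.6 CPM (median 88.2) in lean and 50.5 to 77.6 CPM (median 62.8) in obese hearts and at 7.74 to 11.6 CPM (median 9.15) and 20.9 to 42.4 CPM (median 29.99) in the kidneys. Lean and obese kidneys were fully apart, and the heart groups overlapped. The effects of -0.60 ± 0.10 and 1.77 ± 0.12 differed by -2.37 ± 0.16 (adjusted p = 8.6e-14). Col24a1, a fibrillar collagen, changed by 2.75 ± 0.15 in kidney, where it was at 1.27 to 2.11 CPM (median 1.63) in lean and 7.92 to 16.2 CPM (median 10.1) in obese rats. Its heart change of -0.38 ± 0.12 was near the threshold (adjusted p = 0.043) and lost its call under 12 of 18 alternatives (adjusted p from 0.028 to 0.47).

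Cxcl11, an interferon-induced chemokine for T cells, was at 5.49 to 13.1 CPM (median 10.4) in lean and 2.64 to 5.7 CPM (median 3.91) in obese hearts and at 4.48 to 8.58 CPM (median 6.02) and 8.28 to 14.8 CPM (median 10.5) in the kidneys. Its changes were -1.39 ± 0.14 and 0.86 ± 0.14 (adjusted p = 1.2e-09 and 5.8e-06), and the groups overlapped in each organ. Lymphoid markers summed to 10 to 24.5 CPM in lean and 6.87 to 14.8 CPM in obese hearts, and to 24.1 to 43.3 CPM and 41.7 to 98.4 CPM in the kidneys; their part in Cxcl11 was not tested. Cxcr4, a chemokine receptor of immune and vascular cells, was at medians of 12.9 and 9.09 CPM in lean and obese hearts and 2.8 and 7.08 CPM in the kidneys, with changes of -0.50 ± 0.11 and 1.38 ± 0.13.

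Heart-specific genes included regulators of sugar and fat use. Mlxipl, the glucose-sensing transcription factor ChREBP, was at 6.29 to 11.9 CPM (median 9.29) in lean and 2.17 to 7.2 CPM (median 3.9) in obese hearts and at 83.5 to 119 CPM (median 99) and 73.7 to 149 CPM (median 98.2) in the kidneys. It changed by -1.10 ± 0.15 in heart and by 0.03 ± 0.13 in kidney (adjusted p of the difference = 5.5e-05). Pfkfb2, the heart isoform of the enzyme that makes the activator of phosphofructokinase, was at 33.4 to 57.5 CPM (median 45) in lean and 13.3 to 38.4 CPM (median 25.3) in obese hearts, a change of -0.79 ± 0.10, beside -0.16 ± 0.10 in kidney. Gpam, which commits fatty acids to glycerolipids, went from a median of 104 to 131 CPM in heart, by 0.45 ± 0.12, and from 70.5 to 63.8 CPM in kidney, by -0.19 ± 0.12; the difference was past the test (adjusted p = 0.0055).

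Vascular and electrical genes were also among them. Aplnr, the apelin receptor of endothelium, was at 58.9 to 92.2 CPM (median 79.3) in lean and 28.9 to 56.6 CPM (median 35.6) in obese hearts, fully apart, and at 7.91 to 12.8 CPM (median 9.09) and 5.52 to 13.6 CPM (median 10.04) in the kidneys. Its effect was -0.98 ± 0.12 in heart and 0.11 ± 0.14 in kidney. Cdh5, the cadherin of endothelial junctions, was at 171 to 229 CPM (median 182) and 116 to 165 CPM (median 142) in lean and obese hearts, also apart, and changed by -0.44 ± 0.07 in heart and 0.15 ± 0.07 in kidney. In bulk tissue, fewer cells of a type and less RNA per cell cannot be told apart. Of 12 endothelial markers measured in both organs, 0 rose and 2 fell in heart, where 3.46% of all genes fell. In kidney 1 rose and 5 fell, where 12.0% of all genes fell, and 1 marker differed between organs in each direction. The list medians were -0.15 in heart and -0.16 in kidney. The markers' summed level ran from 1059 to 1819 CPM in lean and from 968 to 1272 CPM in obese hearts. In the kidneys it ran from 580 to 827 CPM and from 581 to 790 CPM. Hcn2, a pacemaker channel, was at 12.5 to 87.2 CPM (median 63.4) in lean and 7.37 to 49.4 CPM (median 29) in obese hearts; its heart change of -0.85 ± 0.25 (adjusted p = 0.025) was lost under 4 of 18 alternatives.

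Among heart-specific genes that rose, Epn3, an endocytic adaptor of the epsin family, was at 4.84 to 9.47 CPM (median 6.38) in lean and 12.3 to 22.5 CPM (median 15.8) in obese hearts, a change of 1.30 ± 0.12, while the kidney change was -0.11 ± 0.12. Haemoglobin genes rose in heart as well. Hbb-b1 was at 992 to 1777 CPM (median 1263) in lean and 2851 to 10281 CPM (median 4252) in obese hearts, without overlap, and at 807 to 1541 CPM (median 1084) and 855 to 2247 CPM (median 1128) in the kidneys, with effects of 1.75 ± 0.20 and 0.14 ± 0.20. Of the 4 red cell markers measured in both organs 3 rose and 1 fell in heart, and 0 rose and 1 fell in kidney. The marker that fell was Slc4a1, at medians of 27.9 and 18 CPM in lean and obese hearts and 261 and 175 CPM in the kidneys. Unlike the haemoglobin genes, it was higher in kidney than in heart. The summed level of the red cell marker list was 1502 to 3267 CPM in lean and 4503 to 16871 CPM in obese hearts. Haemoglobin genes are near-identical copies, so reads may be split among them, and the part of blood left in the tissue was not tested.

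Kidney-specific genes were the largest class, and many tubule injury genes were in it. Of 17 genes of the injury list measured in both organs, 16 rose and 0 fell in obese kidneys, where 15.6% of all genes rose. In obese hearts, where 5.05% of all genes rose, 2 rose and 1 fell. Medians were 1.45 and 0.22, and the effect was lower in heart for 14. This list was written for kidney, with results of these libraries known, and its direction is no independent evidence. Lcn2, the secreted injury marker NGAL, was at 1.79 to 4.52 CPM (median 2.78) in lean and 23.1 to 55.7 CPM (median 39) in obese kidneys, and at 2.94 to 7.98 CPM (median 4.99) and 3.3 to 7.64 CPM (median 4.53) in the hearts. The kidney change was 3.69 ± 0.19, the heart interval was -0.44 to 0.24, and the difference was -3.79 ± 0.25 (adjusted p = 3.8e-14).

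Clu, the chaperone clusterin, was at 822 to 1195 CPM (median 993) and 859 to 1198 CPM (median 1023) in lean and obese hearts, where the 95% interval of its change was -0.21 to 0.26. In kidney it was at 85.2 to 138 CPM (median 101) in lean and 349.8 to 807 CPM (median 491) in obese rats, a change of 2.36 ± 0.13. Socs3, the feedback inhibitor that cytokines such as interleukin-6 induce through STAT3, was at 3.01 to 4.7 CPM (median 4.17) in lean and 16.1 to 36 CPM (median 21.3) in obese kidneys, a change of 2.58 ± 0.17, and was 0.08 ± 0.15 in heart. Spp1, osteopontin, was at 272 to 738 CPM (median 357) in lean and 3419 to 7973 CPM (median 5273) in obese kidneys, a change of 3.60 ± 0.54. Its heart value rests on 1 library: heart lean replicate 8 held 142 CPM, and with that library the heart effect was 0.37 ± 0.52 and without it 1.83 (adjusted p = 3.6e-05), so that Spp1 then rose in both organs, with a difference of -1.77 in place of -3.23 ± 0.73.

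Most extracellular matrix genes rose in kidney. Of 38 measured, 31 rose and 0 fell in obese kidneys, where 15.6% of all genes rose. In obese hearts, where 5.05% of all genes rose, 8 rose and 1 fell. The difference was called for 27, and in 26 of these the effect was lower in heart; the medians were 0.91 and 0.16. Smooth muscle and pericyte markers moved with them: 5 of 9 rose in kidney, and their sum was 297 to 415 CPM in lean and 433 to 698 CPM in obese kidneys, without overlap, against 1176 to 2084 CPM and 1122 to 1595 CPM in the hearts. Their part in the matrix values was not tested. Col1a1, a chain of type I collagen, was at 18 to 32.9 CPM (median 24.9) in lean and 46.8 to 109.6 CPM (median 63.2) in obese kidneys and at 35.1 to 106 CPM (median 58) and 51.6 to 130.4 CPM (median 77.8) in the hearts. It changed by 1.40 ± 0.16 in kidney and 0.32 ± 0.14 in heart (adjusted p = 0.18 in heart). Col4a1, of basement membranes, changed by 0.94 ± 0.09 in kidney, where it was at 205 to 321 CPM (median 276) in lean and 400.1 to 666 CPM (median 509) in obese rats. In heart it was -0.26 ± 0.09 (adjusted p = 0.056), and it passed the test there under 4 of 18 alternatives, which would make it opposite. Timp1, an inhibitor of matrix proteases, was at 4.87 to 8.13 CPM (median 6.35) and 20.1 to 40.4 CPM (median 26.3) in lean and obese kidneys and changed by 2.03 ± 0.18, against 0.38 ± 0.18 in heart. Tgfb1, a main driver of fibrosis, changed by 1.06 ± 0.13 in kidney (medians 7.7 and 15.9 CPM) and by -0.15 ± 0.12 in heart (medians 12.8 and 11.7 CPM).

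Most myeloid markers rose in kidney, and fewer rose in heart. Of 19 myeloid markers measured in both, 18 rose in obese kidneys, where 15.6% of all genes rose, and 10 in obese hearts, where 5.05% did. In either organ 0 fell, and the effect was lower in heart for 10 markers, beside 10.6% of all genes. Without the 5 libraries that stand apart, 7 of 18 rose in heart and 17 in kidney. Their summed level ran from 480 to 669 CPM in lean and from 1322 to 1868 CPM in obese kidneys, without overlap, and from 140 to 366 CPM and 212 to 586 CPM in the hearts. Of 5 lymphoid markers measured in both organs, 3 rose in kidney and 0 changed in heart by edgeR (0 also at an unadjusted p under 0.05, and 0 by DESeq2). Mrc1, the macrophage mannose receptor, rose by 0.65 ± 0.17 in heart and 1.68 ± 0.19 in kidney, from medians of 7.11 to 11.2 CPM and 4.76 to 17.6 CPM. Its heart call (adjusted p = 0.012) was lost under 3 of 18 alternatives, and the call of its difference between organs (adjusted p = 0.0027) under 2 of 19. Interferon response genes moved in kidney: of 25 measured, 21 rose there and 1 in heart, beside 15.6% and 5.05% of all genes. Irf1, a transcription factor of that response, was at 17.5 to 25.2 CPM (median 20.4) in lean and 33 to 53.5 CPM (median 38.5) in obese kidneys and changed by 0.97 ± 0.10 there and by -0.07 ± 0.10 in heart. Of 14 complement and acute phase genes, 11 rose and 0 fell in kidney, 3 rose and 1 fell in heart, and the effect was lower in heart than in kidney for 11. The part of infiltrating cells in these values was not tested.

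Cell cycle genes rose in kidney, where 15.6% of all genes rose (5.05% in heart). Of 22 measured, 20 rose and 0 fell in kidney, 0 rose and 1 fell in heart (0 and 2 at an unadjusted p under 0.05 by edgeR, 0 and 1 by DESeq2), and the medians were 1.60 and -0.03. Mki67, which marks cycling cells, was at 3.03 to 5.96 CPM (median 4.05) in lean and 10.6 to 21.8 CPM (median 16.7) in obese kidneys and at 2.88 to 8.9 CPM (median 6.32) and 3.46 to 12.3 CPM (median 5.97) in the hearts. Its change was 1.92 ± 0.20 in kidney and 0.06 ± 0.18 in heart (adjusted p of the difference = 3.1e-06). Immediate-early genes, the first response to many stimuli, rose for 11 of 13 in kidney and 3 of 13 in heart.

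Most nuclear genes of the respiratory chain and a part of the citric acid cycle genes fell in kidney, where 12.0% of all genes fell. Of 26 nuclear genes of the respiratory chain, 17 fell and 0 rose in obese kidneys and 0 changed in obese hearts (0 also at an unadjusted p under 0.05 by edgeR, and 0 by DESeq2), where the median was 0.02. The kidney median was -0.27, and the difference was called for 10 of the 26 (5 without the libraries that stand apart, 13 by DESeq2). Of 16 genes of the citric acid cycle, 7 fell in kidney (6 without the libraries that stand apart) and 0 changed in heart by edgeR (2 rose and 1 fell at an unadjusted p under 0.05, 0 by DESeq2). The difference was called for 4 of the 16 (2 without those libraries, 6 by DESeq2). In both lists every called difference had the higher effect in heart. Of all genes, 17.9% differed and 7.39% had the higher effect in heart. Markers of kidney tubule cells summed to 23694 to 25732 CPM in lean and 15045 to 18866 CPM in obese kidneys, without overlap, and their part in the falls of metabolic genes in kidney was not tested. Igf1, insulin-like growth factor 1, was at 23.1 to 33.5 CPM (median 27.2) in lean and 8.14 to 19.5 CPM (median 14.5) in obese kidneys, without overlap, and at 4.1 to 11 CPM (median 5.95) and 3.5 to 9.17 CPM (median 6.24) in the hearts. It changed by -0.95 ± 0.12 in kidney and -0.15 ± 0.13 in heart. Srebf1, the master regulator of fatty acid synthesis, was at 40.6 to 69.4 CPM (median 56.9) and 21.7 to 44.5 CPM (median 31.7) in lean and obese kidneys, and changed by -0.82 ± 0.12 there and by 0.07 ± 0.12 in heart.

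The lists of ribosomal protein, hypoxia and proteasome genes held 0 or 1 gene each whose effect differed between the organs, beside 17.9% of all genes. Of 22 cytosolic ribosomal protein genes, 0 changed in either organ and 0 differed between organs by edgeR or DESeq2. At an unadjusted p under 0.05, 4 rose in heart, 1 rose in kidney and 0 differed. Of 12 hypoxia genes, 1 fell in heart and 2 rose in kidney, and 0 differed by edgeR (1 higher and 1 lower in heart at an unadjusted p under 0.05, 1 by DESeq2). Among 24 proteasome genes 1 differed. Among 19 genes of cholesterol synthesis and uptake 6 rose and 1 fell in kidney, 0 changed in heart (1 rose and 2 fell at an unadjusted p under 0.05, 0 by DESeq2) and 4 differed.

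**Figure D4:**
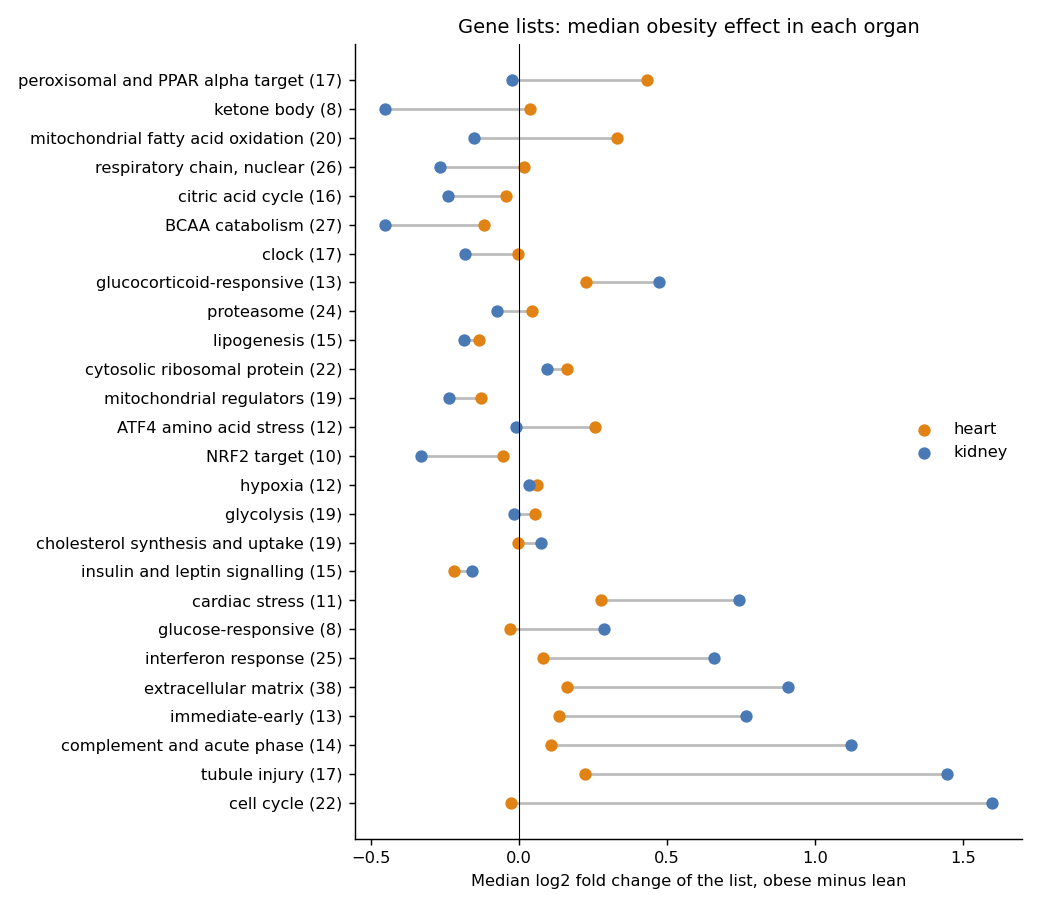
Median log2 fold change (obese minus lean) of each pathway list with at least 8 members measured in both organs (number of members in brackets). Heart is orange and kidney blue, and lists are ordered by the median difference. Marker lists are not drawn. Among those with at least 8 members, the myeloid and skeletal muscle lists had heart medians of 0.51 and 0.56. The kidney median of cell cycle genes is 1.60 beside -0.03 in heart, and the only pathway lists with a heart median above 0.3 are the fatty acid oxidation and PPAR alpha lists.

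Genes measured in 1 organ alone have no difference to test. In heart 76 of 548 such genes (13.9%) changed, and in kidney 1067 of 2094 (51.0%). Nppa, the atrial natriuretic peptide, was at 315 to 991 CPM (median 389) in lean and 501 to 2162 CPM (median 1005) in obese hearts and rose by 1.29 ± 0.27 (adjusted p = 0.0042). Atrial markers, a list that holds Nppa itself, summed to 940 to 2035 CPM in lean and 1016 to 4058 CPM in obese hearts. Myl7 of that list was at 5.89 to 266 CPM (median 89.4) in lean and 8.21 to 694 CPM (median 87.4) in obese hearts. Neither the sum nor Myl7 is TMM-scaled, unlike the Nppa values above. Before TMM scaling the Nppa medians were 424 CPM in lean and 979 CPM in obese hearts. Without the 3 hearts that stand apart the change of Nppa was 0.88 ± 0.23 (adjusted p = 0.031), and the part of atrial tissue in it was not tested. Nppb, the related peptide of ventricular strain, was at 119 to 427 CPM (median 212) and 182 to 405 CPM (median 285) and did not pass the test (0.33 ± 0.18, adjusted p = 0.36). Havcr1, the tubule injury molecule KIM-1, was at 3.04 to 21.9 CPM (median 5.78) in lean and 176 to 504 CPM (median 229.7) in obese kidneys, without overlap, and rose by 5.14 ± 0.31.

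The next 5 genes were chosen after their values were seen, for the size of their change or for their function. In heart, Gpihbp1, which anchors lipoprotein lipase to capillaries, was at 19 to 58.5 CPM (median 31.6) in lean and 59.5 to 190 CPM (median 79.7) in obese rats, and Ucp3, a mitochondrial carrier of muscle that fatty acids induce, was at 7.01 to 22.1 CPM (median 15.4) and 23.2 to 53.8 CPM (median 35.6). Card9, a signalling adaptor of myeloid cells, was at 6.91 to 45.8 CPM (median 16.3) in lean and 0 to 2.08 CPM (median 0.889) in obese hearts, a change of -4.50 ± 0.35. In kidney, Cyp8b1, the sterol 12-hydroxylase of bile acid synthesis, was at 21.2 to 34 CPM (median 25.4) in lean and 0.694 to 2.95 CPM (median 1.67) in obese rats. Cftr, the chloride channel, was at 12.2 to 24.7 CPM (median 14.7) in lean and 1.28 to 3.89 CPM (median 2.91) in obese rats, a change of -2.61 ± 0.17.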

How the data were processed

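Poly-A RNA from heart and kidney was sequenced as stranded libraries, per the labels' protocols. The deposited tables of expected counts per gene were made by the authors with STAR 2.7.3a and Salmon 1.5.2 on build mRatBN7.2, as the submitters' processing notes name them, with no role or order given. Of their values, 7.33% are not whole numbers. Runs of a library were summed and rounded to whole counts. The authors' deposited tables of scaled counts (a signal, relative to size factors) served to check this and to supply gene symbols: for all 14 libraries with 2 runs, their values were proportional to the sum of runs (coefficient of variation of the ratio under 0.001). A further 82 count columns match no sample and were not used.

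Genes passing edgeR's filterByExpr in each organ were kept (12146 in both). edgeR 4.0.16 in R 4.3.3 fitted 1 quasi-likelihood model to the 39 libraries, with organ by genotype groups and a plate term per organ (replicates 1 to 5 on plate 1, 6 to 10 on plate 2) and TMM scaling within organ. CPM values of genes in the joint fit are scaled likewise. Marker sums, and levels of Umod, Myl7, Myh4, Slc4a1 and the fat cell markers, are CPM of library totals without TMM. TMM factors were 0.979 to 1.15 in lean and 0.831 to 1.02 in obese hearts. In kidneys they were 0.904 to 0.988 in lean and 0.995 to 1.09 in obese rats. Marker levels are not adjusted for them. CPM are not per gene length, so they compare samples, not genes. All p-values are two-sided, from edgeR's quasi-likelihood F test with Benjamini-Hochberg adjustment over all genes tested, and ± gives the SE of a log2 fold change. Genes measured in 1 organ were fitted in that organ alone. Each group is described as 10 rats in the study's design text. Genes measured in 1 organ have CPM over all genes of that organ. The scripts were tested on simulated data.

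Genes named are those with a symbol, not a locus name, and a mean of at least 5 CPM in at least 1 group of each organ: the 8 opposite genes of each direction with the largest difference, the 6 shared genes of each direction with the largest smaller effect, the 5 organ-specific genes of each direction and organ, from every list at most 4 genes whose difference was called, taken by its adjusted p, and 17 preset genes. Only part of the genes so named is described, and some are not reported here. The members, gene lists and half-site motif were chosen with earlier results of these data known. Alternatives were DESeq2 1.42.0, other scaling and filters, no plate term, single plates, replicate blocks, original runs only, each organ alone, a stricter threshold and libraries left out.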

Additional observations from a re-analysis of the deposited data

Results flagged for a closer look

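In 10 of 212 groups of 9 or 10 libraries examined for the named genes, the highest or lowest library lay further from its nearest neighbour than Dixon's 95% limit allows, and chance alone flags about 1 in 20 groups. Heart obese replicate 10 was the highest of its group for Abcd3 at 71.1 CPM, Hbb-b1 at 10281 CPM, Spp1 at 57.8 CPM, Timp1 at 15.6 CPM and Mki67 at 12.3 CPM. It is also 1 of the libraries that stand apart by Myl7. Heart lean replicate 8, which holds Umod, was the highest for Spp1 at 142 CPM. Acaa2 reached 2101 CPM in heart obese replicate 6 and Socs3 11.8 CPM in heart obese replicate 8. The lowest libraries of their groups were kidney lean replicate 3 for Acat1 at 552 CPM and heart lean replicate 7 for Retsat at 120 CPM. The part of these libraries' composition in the values was not tested.

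The effect of obesity differed between heart and kidney, by edgeR's test of the difference itself, for 43 of the 53 genes printed. Many of the printed genes were chosen by that difference, so this count is no share to set against the 17.9% of all genes. Values are the log2 effect in heart minus that in kidney. Among genes shared in direction the differences were 0.96 for Angptl4, 0.54 for Txnip, -0.45 for Plin2, -1.88 for Cdkn1a, -1.03 for Mrc1 and -0.82 for Bdh1. Among opposite genes they were 1.02 for Acaa2, 0.89 for Acadm, 0.56 for Acadvl, 0.72 for Abcd3, 1.06 for Retsat, 1.06 for Nudt7, 1.23 for Irs2, 1.41 for Cacna1h, -2.37 for Col15a1, -3.13 for Col24a1, -2.24 for Cxcl11 and -1.87 for Cxcr4. Among heart-specific genes they were 1.21 for Decr1, 0.80 for Ech1, 1.41 for Epn3, -1.14 for Mlxipl, -0.63 for Pfkfb2, -1.08 for Aplnr, -1.21 for Hcn2, -0.59 for Cdh5, 1.61 for Hbb-b1 and 0.64 for Gpam. Among kidney-specific genes they were 0.27 for Bckdhb, 0.65 for Acat1, -3.79 for Lcn2, -3.23 for Spp1, -2.33 for Clu, -2.50 for Socs3, -1.65 for Timp1, -1.07 for Col1a1, -1.19 for Col4a1, -1.21 for Tgfb1, -1.86 for Mki67, -1.03 for Irf1, -1.23 for Ucp2, 0.80 for Igf1 and 0.88 for Srebf1.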

How the results depend on the processing

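The count of 134 opposite genes and that of 1033 genes called in heart each moved by over 1.5 times under 5 alternatives. With kidney lean replicate 8 kept there were 80 opposite genes. Without the plate term there were 566 genes called in heart, 196 shared, 60 opposite and 159 heart-specific. With each organ fitted alone there were 581 called in heart and 164 heart-specific. In plate 2 alone 433 differences, 125 genes in heart, 1107 in kidney, 29 shared, 10 opposite, 28 heart-specific and 341 kidney-specific genes were called, whereas plate 1 alone, with about as many libraries, gave 1932, 886, 3520, 356, 94, 206 and 1378. At an adjusted p under 0.01 these were 1262 differences, 467 in heart, 165 shared, 37 opposite, 128 heart-specific and 948 kidney-specific. Without the 5 libraries that stand apart, an alternative chosen after seeing the data, there were 676 in heart and 76 opposite. The cause was not tested. No result changed direction past the threshold under these alternatives, and for the differences of the 53 printed genes 1011 of 1060 values kept their side of the threshold, 41 lost and 8 gained a call. Many of these genes were chosen by that difference, so these values do not stand for all genes.

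Same-numbered libraries did not deviate together (median correlation -0.00706 between lean and obese hearts, -0.138 between lean and obese kidneys, -0.0833 and -0.13 between organs in lean and obese rats), and at most 2 libraries of a comparison correlated best with their own number. These correlations gave no sign that the numbers pair the samples. They cannot show that a heart and a kidney of the same number came from different rats, which the labels leave unknown. With a replicate block within each organ there were 1753 differences, 849 calls in heart and 2991 in kidney, 267 shared, 102 opposite, 226 heart-specific and 1237 kidney-specific genes, and with a replicate block across organs 1507 differences.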
